A study of Mus musculus with 26 samples.

Results

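The endothelin genes of the mouse RPE/choroid were examined by following 5 genes through every table: the ligand genes Edn1 and Edn3, the receptor genes Ednra and Ednrb, and Ece1, which encodes the enzyme that releases the active peptides. They were chosen by name and not by their values. All 5 had a row among the 16426 genes of the single-cell (scRNAseq) tables and among the 17623 genes of both bulk RNAseq tables. Cells of dissected RPE/choroid (retinal pigment epithelium with the vascular layer behind it) were sorted as nucleated and live and profiled as 1 library of 3-month-old B6129PF1/J mice and 1 of 3-month-old C57BL/6J mice, each pooled from 1 male and 1 female eye. RPE/choroid tissue of 6-month-old C57BL/6J mice was sequenced in bulk from 3 Ihh+/+ and 3 Ihh iΔEC/iΔEC animals, in which the Hedgehog ligand gene Ihh was deleted in endothelial cells (ECs). Both genotypes carried a Cre recombinase driven by the Cdh5 promoter, which is active in ECs of every organ, and both received tamoxifen 12 weeks before sacrifice. Stromal GLI1+ cells, sorted from the RPE/choroid of Gli1 GFP/+ mice (labelled SWR/J, and outcrossed to BALB/c according to the methods), pooled and expanded in culture, were starved and given vehicle (DMSO) or 100 nM of the Hedgehog agonist SAG for 24 h, with 3 libraries each.

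Endothelins are short vasoactive peptides cut from larger precursors, first by furin-type convertases and then by endothelin-converting enzymes such as ECE-1. Endothelin-1, made mainly by ECs, contracts vascular smooth muscle through the ETA receptor (encoded by Ednra), whereas the ETB receptor (Ednrb) on ECs releases nitric oxide and clears endothelin from the blood. Endothelin-3 binds ETB with higher affinity than ETA, and its signal through ETB is required for the neural crest cells that become melanocytes and enteric neurons.

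The mature peptides of the 2 ligand genes are each encoded by 63 bases within exon 2. On GRCm38 (mm10), the build named in the submitters' notes, the stretch for Edn1 lies at chr13:42303649-42303711 and that for Edn3 at chr2:174761749-174761811, both on the plus strand. They are shown because the single-cell data placed the transcripts of these 2 genes in different cells. Letters are from the GENCODE M21 transcripts, 5′ to 3′, and capitals mark the codons whose amino acid differs between both ligands.
Edn1: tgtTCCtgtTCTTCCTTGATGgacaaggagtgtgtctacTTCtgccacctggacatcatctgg
Edn3: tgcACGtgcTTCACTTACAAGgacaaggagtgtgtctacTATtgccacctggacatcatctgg

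Of the 21 codons, 15 encoded the same amino acid and 6 did not, and 50 of the 63 bases were identical. Of those 6 codons, 5 are among the first 7, and the 21 bases of the last 7 codons are identical. The genes themselves lie far apart. Edn1 (ENSMUSG00000021367) spans chr13:42301476-42307990 on the plus strand with 5 exons, and Edn3 (ENSMUSG00000027524) spans chr2:174760619-174784042 on the plus strand with 5 exons. Ednra (ENSMUSG00000031616) spans chr8:77663031-77724464 on the minus strand with 8 exons, Ednrb (ENSMUSG00000022122) chr14:103814625-103844402 on the minus strand with 8 exons, and Ece1 (ENSMUSG00000057530) chr4:137862237-137965229 on the plus strand with 20 exons. Edn1, Ednra and Ece1 each overlap 1 annotated gene on the other strand, Gm47118, 4933431K23Rik and Gm13012. The bulk libraries were made with the TruSeq RNA kit, which does not mark strand, so reads of those pairs cannot be told apart in the bulk values.

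The libraries held 3637 cells and 17168578 UMIs (unique molecular identifiers, one per captured transcript) for B6129PF1/J and 3928 cells and 15230413 UMIs for C57BL/6J. Median depth was 3881 and 3174.5 UMIs per cell, and 22 cell barcodes occurred in both libraries. The deposited assignment of cells to 13 clusters was used, with the cell types as named with the data: RPE (cluster 1), Kdr-high, Kdr-medium and Kdr-low ECs (clusters 2 to 4, named for declining Kdr, the VEGF receptor gene), stromal cells (5 to 8), smooth muscle cells (9), melanocytes (10), hematopoietic cells (11) and Schwann cells (12 and 13). The marker list of each of these 7 cell types had its highest sum in a cluster of that name in both libraries. The sum of the pericyte markers peaked in stromal cluster 6. Melanocytes were few, with 16 and 26 cells. A level is the summed UMIs of a gene per 10000 UMIs of all genes in that cluster, with an exact Poisson 95% interval. Below, paired values give B6129PF1/J first and C57BL/6J second. Each strain was 1 library, so intervals cover counting error only and no test between strains or clusters was possible. The clusters were built from these same counts, and levels by cluster are therefore descriptions.

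The 5 genes divided by cell type. Edn1 was found almost wholly in ECs, Edn3 in stromal cells, Ednra mostly in stromal and smooth muscle cells, Ednrb mostly in Kdr-high and Kdr-medium ECs with its highest level in melanocytes, and Ece1 in ECs and stroma. ECs held 98.3% (exact Clopper-Pearson 95% interval 97.3 to 99.0) and 96.0% (94.7 to 97.0) of Edn1 UMIs but 27.1% and 31.9% of all UMIs. Stromal cells held 94.1% (93.6 to 94.5) and 93.0% (92.4 to 93.5) of Edn3 UMIs, against 39.0% and 37.7% of all UMIs. The receptors were divided differently from the ligands. Of Ednra UMIs, 58.9% and 59.0% were in stromal cells and 36.7% and 35.6% in smooth muscle cells. Of Ednrb UMIs, 87.1% and 83.2% were in ECs and 6.61% and 9.05% in the melanocytes, which gave 0.517% and 0.681% of all UMIs. Ece1 UMIs were in ECs (55.5% and 58.0%) and stromal cells (40.2% and 37.8%).

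**Figure D1:**
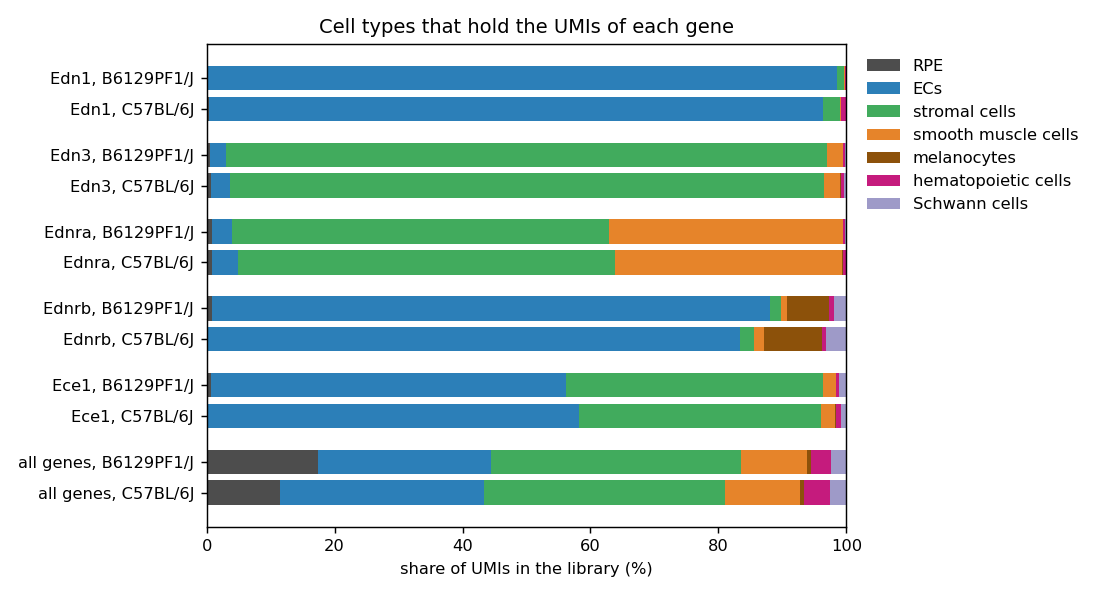
Share of the UMIs of each endothelin gene (x axis, %) that each cell type held, with 1 bar per gene and library and the share of all genes' UMIs in the bottom pair of bars. ECs fill 98.3% and 96.0% of the Edn1 bars, stromal cells 94.1% and 93.0% of the Edn3 bars, and melanocytes 6.61% and 9.05% of the Ednrb bars.

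A gene was counted as restricted to a cell type where its level there was at least 3 times that in every other cell type in both libraries. Among the 5 genes, 3 met this limit (Edn1, Edn3 and Ednrb), against 9.77% of the 9664 genes with at least 100 UMIs in each library. Edn1 was 88.8 and 17.2 times higher in ECs than in the next cell type. Edn3 was 9.98 and 11.6 times higher in stromal cells than in smooth muscle cells, and Ednrb 3.97 and 5.09 times higher in melanocytes than in ECs. The EC level pools clusters 2 to 4. Against Kdr-high ECs alone, the Ednrb level of melanocytes was 2.35 and 2.65 times as high, so its call rests on this pooling. Ednra (2.35 and 1.93 times, smooth muscle over stroma) and Ece1 (1.99 and 1.81 times, ECs over stroma) stayed under it.

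**Figure D2:**
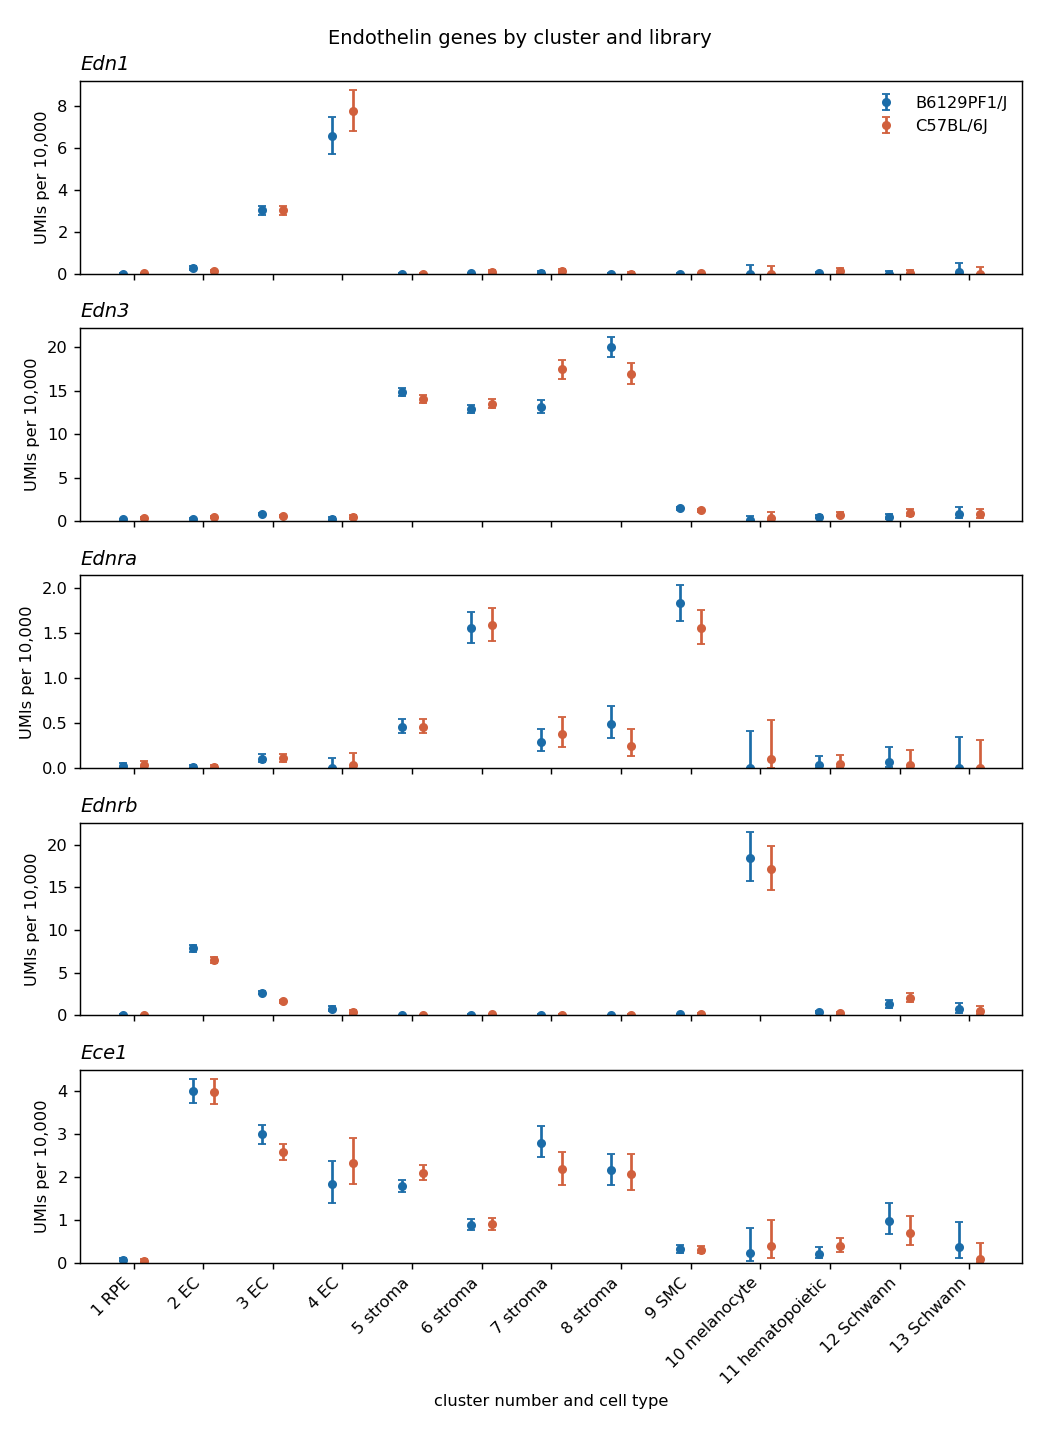
Level of each endothelin gene (y axis, UMIs per 10,000 UMIs of all genes, 1 panel per gene with its own scale) in the 13 clusters (x axis). Points are the B6129PF1/J and C57BL/6J libraries and bars are exact Poisson 95% intervals. Edn1 rises from cluster 2 to cluster 4, Ednrb falls over the same clusters and peaks in cluster 10, and Edn3 is at 12.9 or above in clusters 5 to 8 and at 1.45 or below elsewhere.

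Edn1, the EC-derived constrictor, differed between the EC clusters. Kdr-high ECs are those the study assigns to the choriocapillaris, the capillary bed beneath the RPE. In Kdr-low ECs its level was 6.57 (5.72 to 7.51) and 7.77 (6.85 to 8.78), from 215 and 257 UMIs. In Kdr-medium ECs it was 3.03 (2.82 to 3.26) and 3.04 (2.83 to 3.25). In Kdr-high ECs it was 0.268 (0.199 to 0.352) and 0.126 (0.0798 to 0.189). None of these 3 intervals overlapped within a library. The Kdr-low level was 2.17 and 2.56 times the Kdr-medium level, and 24.5 (18.0 to 34.0) and 61.7 (40.2 to 99.0) times the Kdr-high level. The size of this last difference depended on the cells used. Its inverse, Kdr-high over Kdr-low, was 0.0408 and 0.0162, and was 0.0180 in B6129PF1/J without the 5% of cells with most UMIs and 0.00805 thinned or 0.00846 as a mean over cells in C57BL/6J. Every cluster outside the ECs was at or below 0.132 UMIs per 10000. No Edn1 UMI was counted in stromal cluster 8 of either library, which allows levels of up to 0.0475 and 0.0628, or in melanocytes, which allows up to 0.338 and 0.289 (3 UMIs of the total).

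Edn1 was unevenly spread among cells. With every cell thinned to 1700 UMIs, 39.7% and 52.8% of Kdr-low ECs had an Edn1 UMI (49.2% and 63.9% unthinned), and 30.5% and 25.5% of Kdr-medium ECs (48.1% and 39.5% unthinned). Among Kdr-high ECs the thinned share was 2.70% and 0.993%. The RPE, taken as a background, gave 0.246% and 0 (unthinned 0.491% and 0.267%) at median depths of 5263 and 3406.5 UMIs, against 3915 and 2954 in Kdr-low ECs. Other clusters outside the ECs reached 3.33% (Schwann cluster 13, 1 of 30 cells) and 2.36% (hematopoietic cells). The Kdr-high share was thus above that of RPE and below these highest values. By level, Kdr-high ECs of B6129PF1/J (0.268) were above every cluster outside the ECs. The next was Schwann cluster 13, at 0.0931 (0.00236 to 0.518) from 1 UMI. In C57BL/6J Kdr-high ECs were at 0.126, beside 0.132 in hematopoietic cells. In Kdr-medium ECs, 50% of the UMIs were in 39 of 430 and 33 of 549 cells, and single cells reached 18 and 38 UMIs.

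Ednrb ran the other way through the same ECs. Its level was 7.87 (7.47 to 8.28) and 6.47 (6.11 to 6.85) in Kdr-high ECs, 2.65 (2.45 to 2.86) and 1.64 (1.49 to 1.80) in Kdr-medium ECs, and 0.733 (0.470 to 1.09) and 0.393 (0.209 to 0.672) in Kdr-low ECs. The last pair rests on 24 and 13 UMIs. The Kdr-high level was 10.7 (7.18 to 16.8) and 16.5 (9.60 to 31.0) times the Kdr-low level. With a limit of 2 times in both libraries, Ednrb was 1 of the genes higher in Kdr-high ECs, as were 7.28% of the 7745 genes with at least 20 UMIs in these clusters together in each library. Edn1 was higher in Kdr-low ECs, as were 4.78% of those genes. Ece1 passed the limit in 1 library of 2: its Kdr-high level was 2.18 (1.67 to 2.88) and 1.71 (1.35 to 2.20) times its Kdr-low level. Edn3, at 1.15 and 1.10 times on 7 and 14 UMIs in Kdr-low ECs, was within it, and Ednra had too few UMIs in ECs to be compared.

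**Figure D3:**
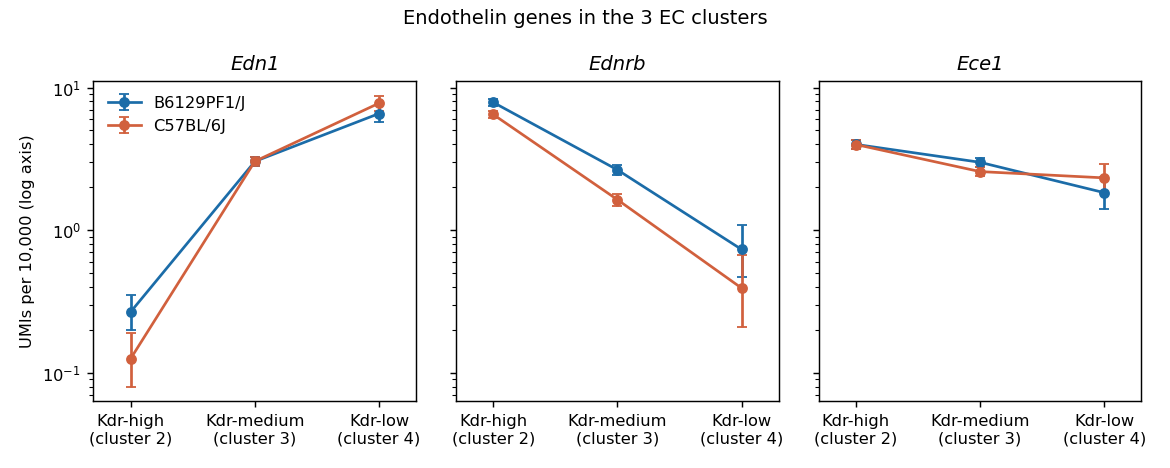
Levels of Edn1, Ednrb and Ece1 (y axis, UMIs per 10,000, log axis) in Kdr-high, Kdr-medium and Kdr-low ECs (x axis), with exact Poisson 95% intervals and 1 line per library. Edn1 is 24.5 and 61.7 times higher in cluster 4 than in cluster 2, Ednrb is 10.7 and 16.5 times higher in cluster 2 than in cluster 4, and Ece1 spans 1.83 to 3.99.

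The share of ECs with UMIs of both Edn1 and Ednrb depended on depth. In thinned Kdr-medium ECs of B6129PF1/J, 131 of 430 cells had an Edn1 UMI, 104 an Ednrb UMI and 23 both. In C57BL/6J these were 140, 93 and 18 of 549 cells. Ednrb was found in 17.6% (11.5 to 25.2) of the cells with Edn1 and 27.1% (22.1 to 32.5) of those without it in B6129PF1/J, and in 12.9% (7.80 to 19.6) and 18.3% (14.7 to 22.4) in C57BL/6J. Both pairs of intervals overlapped. Unthinned, 19.3% and 12.9% of Kdr-medium ECs held both transcripts, and the shares with Ednrb among cells with and without Edn1 were 40.1% and 44.4% in B6129PF1/J and 32.7% and 31.3% in C57BL/6J. In thinned Kdr-low ECs 2 of 63 and 0 of 72 cells held both transcripts, and in Kdr-high ECs 7 of 370 and 1 of 403 did. At 1700 UMIs per cell a transcript can be missed, so these are shares of cells with a UMI and not of expressing cells.

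**Figure D4:**
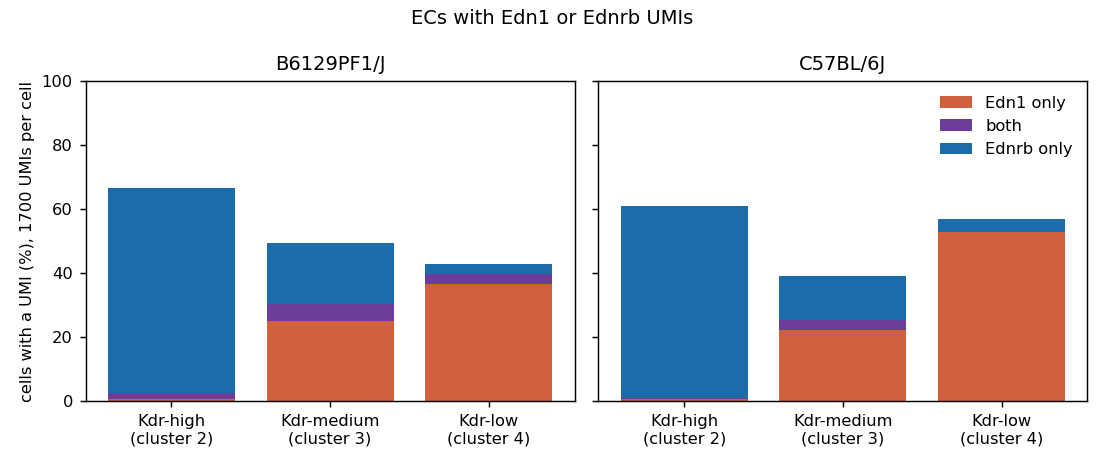
Share of ECs (y axis, % of cells, each thinned to 1700 UMIs) with UMIs of Edn1 alone, Ednrb alone or both, in the 3 EC clusters (x axis) of each library (panels). Bars are nearly all Ednrb in Kdr-high ECs and mostly Edn1 in Kdr-low ECs, and cells with both make up 5.35% and 3.28% of Kdr-medium ECs.

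Melanocytes had the highest Ednrb level of the 13 clusters, 18.5 (15.8 to 21.5) and 17.2 (14.7 to 19.9) UMIs per 10000. That was 2.35 (1.99 to 2.76) and 2.65 (2.25 to 3.10) times the Kdr-high EC level. Every melanocyte had an Ednrb UMI (16 of 16 and 26 of 26 cells), with a median of 10 and 6 UMIs per cell, and 16 and 23 of them had at least 2. After thinning, 93.8% and 92.3% still had a UMI, against 65.7% and 60.3% of Kdr-high ECs and 0.983% and 0 in RPE. Schwann cells, also derived from the neural crest, carried lower levels. In cluster 12 the level was 1.27 (0.906 to 1.74) and 2.05 (1.55 to 2.67), and in cluster 13 it was 0.744 (0.321 to 1.47) and 0.501 (0.184 to 1.09). The intervals of both Schwann clusters overlapped in B6129PF1/J and did not in C57BL/6J. Clusters other than ECs, melanocytes and Schwann cells were at or below 0.365 UMIs per 10000.

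Edn3, the ligand with a preference for ETB, was counted in most stromal cells. Its levels in stromal clusters 5, 6, 7 and 8 were 14.8, 12.9, 13.1 and 20.0 UMIs per 10000 in B6129PF1/J and 14.05, 13.5, 17.4 and 16.9 in C57BL/6J. Cluster 8 was highest in B6129PF1/J, at 1.52 (1.40 to 1.65) times cluster 7, whereas in C57BL/6J that ratio was 0.971 (0.884 to 1.07) and these clusters could not be ordered. Cluster 6 was below cluster 8 in both libraries, by a ratio of 1.55 (1.45 to 1.66) and 1.26 (1.16 to 1.36). After thinning, 88.7% and 86.5% of cluster 5, 79.3% and 80.8% of cluster 6, 67.0% and 74.1% of cluster 7 and 87.5% and 90.6% of cluster 8 cells had an Edn3 UMI. Unthinned shares were 74.6% to 97.5%. Cluster 7 thus had the lowest share of positive cells of these 4 clusters in both libraries, although in C57BL/6J its level, 17.4, was not lowest. A positive cell of cluster 7 held a median of 7 unthinned UMIs in both libraries, against 5 and 4 in cluster 5 and 7 and 5 in cluster 8. Depth differed as well, with medians of 4318 and 3380.5 UMIs per cell in cluster 7 and 3516.5 and 3037 in cluster 5.

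Outside the stroma, Edn3 was highest in smooth muscle cells, at 1.45 (1.28 to 1.64) and 1.24 (1.09 to 1.42). Stromal cluster 6 was 8.86 and 10.8 times above them. There 20.9% and 15.8% of thinned cells had a UMI, against 2.21% and 2.94% of RPE cells, 7.44% and 6.19% of Kdr-medium ECs and 3.77% and 9.45% of hematopoietic cells. In ECs the levels were 0.214 to 0.796 UMIs per 10000, and ECs held 2.38% and 2.89% of Edn3 UMIs. In Kdr-medium ECs of B6129PF1/J 50% of the 192 Edn3 UMIs came from 9 of 430 cells, 1 of which held 29. In melanocytes, where the Edn3 receptor gene Ednrb was highest, 1 and 4 Edn3 UMIs were counted.

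Ednra, the receptor of the contractile response, was counted at low levels in mural and stromal cells. It was 1.83 (1.64 to 2.04) and 1.56 (1.38 to 1.76) in smooth muscle cells and 1.56 (1.39 to 1.74) and 1.59 (1.41 to 1.78) in stromal cluster 6. The ratio of these clusters was 1.18 (1.00 to 1.38) and 0.983 (0.833 to 1.16), so their order was not settled. Cluster 6 exceeded the other stromal clusters, by 3.36 and 3.44 times over cluster 5, 5.29 and 4.24 times over cluster 7 and 3.17 and 6.32 times over cluster 8. It was also the cluster with the highest sum of the pericyte markers Pdgfrb, Rgs5, Kcnj8, Abcc9 and Cspg4, at 108 and 104. By cell type, with the stromal clusters pooled, Rgs5 and Cspg4 were highest in smooth muscle cells. Rgs5 alone was at 92.4 and 99.3 in smooth muscle cells, so this sum sets cluster 6 little apart from them. Thinned, 26.3% and 23.8% of smooth muscle cells and 23.1% and 25.7% of cluster 6 cells had a UMI (unthinned 57.6% and 45.8%, and 40.7% and 38.6%), against 0.246% and 0.267% of RPE cells. In Kdr-high ECs 2 Ednra UMIs were counted in each library, a level of 0.0105 (0.00127 to 0.0379) and 0.0110 (0.00133 to 0.0396).

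Ece1, the converting enzyme, was counted in both cell types that held the ligand genes. Its level was 3.99 (3.72 to 4.29) and 3.99 (3.70 to 4.29) in Kdr-high ECs and 2.99 (2.78 to 3.22) and 2.58 (2.39 to 2.77) in Kdr-medium ECs. In Kdr-low ECs, where Edn1 was highest, it was 1.83 (1.40 to 2.36) and 2.33 (1.84 to 2.91). The stromal clusters had 1.78, 0.876, 2.80 and 2.15 in B6129PF1/J and 2.09, 0.900, 2.18 and 2.07 in C57BL/6J, in cluster order. Cluster 6, with its high Ednra, was lowest among them, and cluster 5 was 2.03 (1.71 to 2.42) and 2.32 (1.96 to 2.77) times above it. Smooth muscle cells had 0.310 and 0.301, and RPE cells 0.0600 and 0.0400. After thinning, 47.6% and 48.1% of Kdr-high ECs had an Ece1 UMI (77.6% and 72.7% unthinned), against 0.737% and 0.802% of RPE cells.

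Between the strains, none of the 5 genes differed by 1.5 times or more in the cluster where it was highest in either library. The ratio of B6129PF1/J over C57BL/6J was 0.846 (0.702 to 1.02) for Edn1 in cluster 4, 1.18 (1.08 to 1.29) for Edn3 in cluster 8, 1.17 (0.996 to 1.38) for Ednra in cluster 9, 1.08 (0.866 to 1.34) for Ednrb in cluster 10 and 1.00 (0.904 to 1.11) for Ece1 in cluster 2. In C57BL/6J Edn3 was highest in cluster 7 and Ednra in cluster 6, where the ratios were 0.753 (0.691 to 0.821) and 0.980 (0.835 to 1.15). In clusters 4, 8, 9, 10 and 2, 11.5%, 13.3%, 10.5%, 17.5% and 10% of the genes with at least 50 UMIs passed that limit. Of 14 other pairs of gene and cluster chosen for this comparison, 2 were past it, both for Ednrb. In clusters 3, 5, 6 and 7, which hold the rest of those pairs with clusters 2, 8, 9 and 12, 9.97%, 9.1%, 9.54% and 13% of genes passed. In Kdr-medium ECs Ednrb was 1.62 (1.43 to 1.83) times higher in B6129PF1/J. In cluster 12 Schwann cells the ratio was 0.621 (0.401 to 0.951), where 14.2% passed. Further pairs were left out of the choice, and some of them lay past the limit. Examples are Edn1 in Kdr-high ECs (0.268 and 0.126) and Edn3 in RPE (0.197 and 0.360). Strain, library and animals cannot be told apart in these values.

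For each gene, the 5 genes with the most similar pattern were found by Pearson correlation of log2(level + 0.1) over the 13 clusters of both libraries. These are 26 values in all, and the clusters of 1 library share its depth, so the values are descriptions. Edn1 was followed by Paqr5 (r = 0.98), Sox17 (0.96), which encodes an arterial transcription factor, Vwf (0.94), von Willebrand factor of larger vessels, Ptprr (0.94) and C130074G19Rik (0.94). Edn3 was followed by Aldh1a2 (0.97), a retinoic acid synthase gene, Pdgfrl (0.97), Pgf (0.96), which encodes placental growth factor, Tmem45a (0.96) and Gm43194 (0.96). For Ednra these were Gucy1a3 (0.97) and Gucy1b3 (0.95), the 2 subunits of the nitric oxide receptor guanylate cyclase, with Susd2 (0.96), Aoc3 (0.96) and the potassium channel subunit gene Kcne4 (0.94). Ednrb had no gene above 0.86. Its list was Paqr7 (0.86), Smyd2 (0.85), Tmcc2 (0.84), Rab3gap2 (0.84) and Tecpr1 (0.84). Ece1 was followed by Tcf3 (0.92), Leprot (0.91), the retinoic acid receptor gene Rarg (0.91), Nostrin (0.91), whose product traffics endothelial nitric oxide synthase, and Lifr (0.90). Among the 5 genes themselves, r was highest for Edn3 and Ednra (0.71) and lowest for Edn3 and Ednrb (-0.63). Edn1 and Ednrb, both EC genes with opposite order among ECs, had 0.20.

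Other endothelin pathway genes were taken from lists chosen by function. Of the 7 processing genes, 6 had a single-cell row and enough UMIs and 1, Furin, was restricted to a cell type, against 9.77% of all genes. Furin, the convertase that makes the first cut, was at 2.24 and 2.39 UMIs per 10000 in stromal cells, 3.62 and 3.63 times the next type, so it lay with Edn3 more than with Edn1. In Kdr-low ECs its level was 0.519 and 0.514. Pcsk5, another convertase, was higher in Kdr-low (1.28 and 1.09) than in Kdr-high ECs (0.0157 and 0.0329, from 3 and 6 UMIs), in the same direction as Edn1. Pcsk6 peaked in stromal cells (0.242 and 0.169) and Pcsk7 in ECs (0.164 and 0.186). Ece2 was low in each cell type, at most 0.183 and 0.148. Kel and the third ligand gene, Edn2, had no row in the single-cell tables. None of the 4 degradation genes (Mme, Ctsa, Ece2 and again Ece1) was restricted to a cell type. Only 2 of them, Ctsa and Ece1, had enough UMIs to be compared between Kdr-high and Kdr-low ECs. Neither passed that limit in both libraries.

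Of 7 regulators of Edn1 transcription tested, 3 (Klf2, Klf4 and Fos) were at least 2 times higher in Kdr-low than in Kdr-high ECs, against 4.78% of all genes. Klf2, a flow-responsive factor, was at 52.9 and 63.1 against 21.8 and 30.7, and Klf4 at 22.3 and 20.3 against 10.7 and 9.46. Fos was at 54.5 and 62.2 against 24.4 and 21.6. Gata2 was restricted to ECs (1.69 and 1.84 UMIs per 10000) and did not differ past the limit between these EC clusters. Of 5 vasodilator genes tested, 2 were restricted to a cell type, against 9.77% of all genes. Nos3, endothelial nitric oxide synthase, was so in ECs and was higher in Kdr-low (2.29 and 1.90) than in Kdr-high ECs (0.961 and 0.925). Gucy1a3 passed the limit in the same direction, on 8 and 11 UMIs in Kdr-low ECs. Nos3 and Gucy1a3 were 2 of the 4 vasodilator genes with enough UMIs in these EC clusters, against 4.78% of all genes. Ptgs1 was EC-restricted at 2.28 and 2.24.

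Of 13 calcium release and contraction genes, 11 had enough UMIs and 3 of them were restricted to 1 cell type, against 9.77% of all genes. Mylk and Ppp1r12a were restricted to smooth muscle cells (20.5 and 17.6, and 7.16 and 7.50) and Prkca to Schwann cells (1.62 and 1.35). Mylk, myosin light chain kinase, was also higher in Kdr-low than Kdr-high ECs (2.11 and 1.75 against 0.315 and 0.372), as was the calcium channel gene Itpr3 (0.519 and 0.544 against 0.0840 and 0.115). Of 11 G protein and phospholipase C genes tested, 1, Gnai1, was restricted to Schwann cells (1.19 and 1.81) and Plcb1 was higher in Kdr-low ECs (1.10 and 1.18 against 0.488 and 0.476). Of 6 receptor regulation genes tested, 1, Arrb2, was restricted to hematopoietic cells (0.804 and 0.742). Of 4 neural crest partners of Ednrb tested, 1, Mitf, the master regulator of melanocytes, was restricted to melanocytes (3.72 and 5.20).

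The bulk tables ask whether the endothelin genes changed when the EC Hedgehog ligand was removed. They give FPKM (fragments scaled for transcript length and sequencing depth) as the authors' mean of each group. Values of single libraries were not used here, so no replicate spread or error is given and no test was run. The targeted gene, Ihh, was at 1.53 FPKM in Ihh+/+ and 0.454 in Ihh iΔEC/iΔEC tissue, and its target Gli1 was at 9.40 and 3.15 FPKM. None of the 5 endothelin genes passed a limit of 2 times set for genes that reach 1 FPKM in either group, which 1.1% of 11411 genes passed upward and 0.745% downward. Edn3 was nearest to it, with 104 FPKM in Ihh+/+ and 54.1 FPKM in Ihh iΔEC/iΔEC tissue, 1.93 times lower (log2 ratio -0.95). Only 0.851% of the genes had a ratio as low. At a limit of 1.5 times, Edn3 was past it, with 2.53% of all genes.

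Ece1 was at 29.4 and 19.6 FPKM (log2 ratio -0.58), just inside 1.5 times. Ednrb was at 46.7 and 33.3 FPKM (-0.49) and Ednra at 5.47 and 4.17 FPKM (-0.39). Edn1 alone among the 5 was higher after deletion, at 1.69 and 2.11 FPKM (0.33). The median gene was at -0.04. On this per-length scale Edn3 was the most abundant endothelin gene of the tissue in both genotypes, followed by Ednrb, Ece1, Ednra and Edn1.

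**Figure D5:**
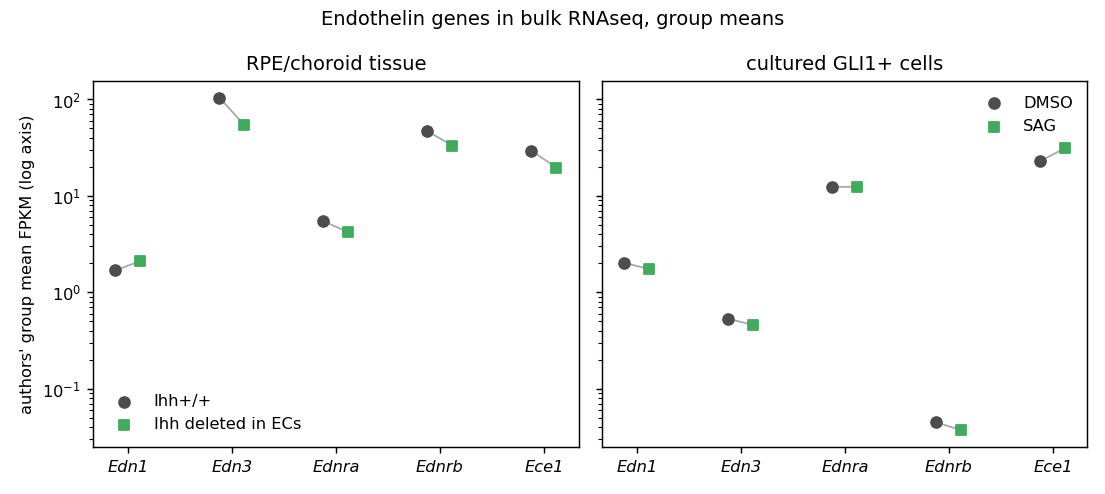
The authors' group mean FPKM (y axis, log axis, no error available) of the 5 endothelin genes (x axis) in RPE/choroid of control (Ihh+/+) and EC-deleted (Ihh iΔEC/iΔEC) animals and in cultured GLI1+ cells given DMSO or SAG. The tables were normalized separately. Edn3 is at 104 and 54.1 FPKM in the tissue and at 0.530 and 0.456 FPKM in the culture, and no pair differs by 2 times.

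Several cell type markers moved with these values. All 5 stromal markers were lower after Ihh deletion, their sum going from 712 to 453 FPKM (ratio 0.636), and 4 of 5 melanocyte markers with a row were lower, from 2118 to 1319 FPKM (0.623). The melanocyte sum also holds RNA of RPE cells. In the single cells Dct was at 13.4 and 12.3 UMIs per 10000 in RPE, which gave 17.5% and 11.5% of all UMIs. All 5 EC markers had a lower value, with a sum of 115 and 96.2 FPKM (0.835). Among them Pecam1 was nearly level (log2 ratio -0.016). Emcn was the largest, at 48.7 and 39.2 FPKM, and through it the EC sum also holds RNA of stromal cells. Its single-cell level was 23.3 and 23.4 UMIs per 10000 in ECs and 11.3 and 12.9 in stromal cells. Smooth muscle markers were lower for 3 of 4, with 57.3 and 51.3 FPKM (0.896). Of 5 pericyte markers 4 were lower, with 102 and 86.2 FPKM (0.843), and all 4 mast cell markers, with 6.59 and 2.13 FPKM (0.323). All 4 RPE markers had a higher value, with 1432 and 1793 FPKM (1.25). Of these Best1 was under 1 FPKM and nearly level, at 0.561 and 0.574. By cell type, Best1 was highest in stromal cells and not in RPE in both single-cell libraries. All 4 photoreceptor markers were lower, with 70.3 and 24.7 FPKM (0.352). Of 5 Schwann markers 3 were lower, with 33.3 and 32.9 FPKM (0.987). Of 4 hematopoietic markers 3 were higher, with 151 and 166 FPKM (1.10). No marker in these lists was at 0. The part of cell composition in the endothelin values was not tested, and in bulk tissue fewer cells of a type and less RNA per cell cannot be told apart.

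Across the pathway lists, 2 of the 7 regulators of Edn1 (Jun and Fos) were past the limit after Ihh deletion, both lower, against 0.745% of all genes, and no gene of the other lists was. Fos was at 102 and 32.2 FPKM and Jun at 62.3 and 18.7 FPKM, whereas Edn1, which these AP-1 factors can activate, was not. Median log2 ratios were -0.10 for processing genes, -0.18 for G proteins and phospholipase C, -0.11 for calcium release and contraction, -0.22 for regulators of Edn1 and -0.34 for neural crest partners of Ednrb. Among the latter, Kitl, the ligand of the melanocyte receptor Kit, was at 15.9 and 9.42 FPKM (-0.76). Furin was at 22.9 and 21.4 FPKM, Pcsk5 at 1.06 and 0.987 FPKM, Pcsk6 at 3.33 and 2.43 FPKM, Pcsk7 at 3.41 and 3.23 FPKM and Ece2 at 1.66 and 1.78 FPKM. Edn2 was at 0.113 FPKM in Ihh+/+ and listed at 0 in Ihh iΔEC/iΔEC tissue.

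For cultured GLI1+ cells, the values with and without the Hedgehog agonist were set side by side, again as group means without a test. Of the Hedgehog target genes, Gli1 was at 0.0280 FPKM with DMSO and 3.65 with SAG, and Ptch1 at 1.13 and 10.1. None of the 5 endothelin genes passed the limit of 2 times, which 0.387% of 10325 genes passed upward and 1.18% downward. Of the 5, Edn3 and Ednrb were under 1 FPKM with DMSO and with SAG, so the limit was not applied to them. Ece1 was at 23.1 and 31.3 FPKM (log2 ratio 0.44), and 97.1% of genes had a ratio at or below this. Ednra was at 12.4 and 12.4 FPKM (0.01) and Edn1 at 2.02 and 1.73 FPKM (-0.22). The median gene was at 0.06.

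Edn3, abundant in the stroma of the tissue, was at 0.530 FPKM with DMSO and 0.456 FPKM with SAG, under the minimum of 1 FPKM in both. Ednrb was at 0.0447 and 0.0370 FPKM. The culture thus had Ednra and Ece1 above 12 FPKM and Edn3 and Ednrb under 1 FPKM, with or without the agonist. The stromal markers were high in it (sums of 4148 and 3733 FPKM), those of ECs (7.12 and 8.57) and melanocytes (1.61 and 1.91) low. The tissue and culture tables were normalized separately, so their levels are set side by side only. In the pathway lists 1 of 5 receptor regulation genes tested, Rgs4, a regulator of G protein signalling, was past the limit (1.18% of all genes were lower by it), at 2.89 FPKM with DMSO and 1.14 with SAG. Furin stayed at 18.2 and 18.3 FPKM, Pcsk5 at 2.11 and 1.60 FPKM, Pcsk6 at 13.3 and 11.8 FPKM, Pcsk7 at 4.44 and 4.90 FPKM and Ece2 at 7.64 and 8.33 FPKM. Edn2 was listed at 0 in both groups.

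A further deposited table compares ECs of the choroid, neural retina, lung, liver and heart, sorted by VE-cadherin from 1-month-old B6129PF1/J mice, and lists only genes at least 5 times higher in choroidal ECs than in the others. Edn3 is 1 of its 99 genes, and the remaining 4 endothelin genes are not listed, which says nothing of their levels. Its authors' mean was 65.7 FPKM in choroidal, 12.9 in neural retina and 1.33 in lung ECs, 0.003 in liver ECs and listed at 0 in heart ECs. Membership used these values, so they are a description, and the choroidal libraries themselves were not analysed here. In the single cells of 3-month-old mice ECs held 2.38% and 2.89% of Edn3 UMIs. Of the 97 listed genes with a single-cell row, 28 and 26 were highest in ECs, 31 and 29 in stromal cells and 24 and 23 in RPE. Stromal RNA in the sorted choroidal ECs was not tested as a source of the 65.7 FPKM.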

How the data were processed

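The authors' deposited UMI counts (Cell Ranger and Seurat 2.1 per the submitters' processing notes, mm10) were read for both scRNAseq libraries, with the deposited cluster numbers; cell totals equalled the metadata in all cells. The study's methods kept cells with at least 1700 UMIs, at least 600 genes and at most 10% mitochondrial reads. Doublets were not removed further; an alternative left out the cells with both Xist and Ddx3y UMIs. The cluster sizes in the deposited metadata are not those of the study's printed table. The deposited bulk tables give FPKM, averaged by the authors over the 3 libraries of each group (STAR 2.4.0f1 and Cufflinks 2.0.2 per the notes); depth is unknown. Fold changes and adjusted p columns of those tables, and the per-cluster averages and marker statistics, hold the authors' own comparisons and were not used.

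Counts were summed per cluster and library and divided by all UMIs. Intervals are exact Poisson, Clopper-Pearson or conditional binomial, at 95%, and cover counting error only. Cells were thinned to 1700 UMIs by drawing without replacement (seed 1). The single-cell groups are 1 library each and the bulk values are group means, so no test was run and no p is given. Named genes are the 5 chosen, pathway genes that passed a limit, lacked a row or are a ligand, receptor or processing enzyme, and the 5 genes most similar to each by Pearson correlation among genes with at least 100 UMIs in each library. Kitl and the Hedgehog genes were named after their values were seen. The genes and lists were chosen with earlier results of these data known. Alternatives were other totals, cell filters, limits, pseudocounts and scalings. The calls by cell type, by EC cluster and by bulk limit, the ratio interval and the correlation step were checked on simulated data. The remaining steps were not. Tables were handled with pandas 2.3.3 and numpy 2.4.6 under Python 3.11.15, intervals came from scipy 1.17.1 and plots from matplotlib 3.10.9. No column of per-sample values was left unmatched. One result on a listed pathway gene is not reported here.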

Additional observations from a re-analysis of the deposited data

How the results depend on the processing

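Of 226 alternative values for 49 results, 172 kept their direction and side of the limit or stayed within their error. Levels in B6129PF1/J rose with totals taken without the 50 most abundant genes. Edn1 in cluster 4 rose to 8.11, Edn3 in cluster 8 to 26.4 and Ednra in cluster 9 to 2.54. Ednrb in cluster 10 rose to 23.9 and Ece1 in cluster 2 to 4.88. In the C57BL/6J library, Edn1, Edn3 and Ednra were at 7.77, 16.9 and 1.56. Thinning raised Ednrb in cluster 10 of B6129PF1/J to 22.8. Leaving out the cells whose barcode is in both libraries, chosen after seeing the data, moved no level past its interval.

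The share of Edn1, Edn3, Ednrb and Ece1 UMIs in their main cell type was 96.0%, 93.0%, 83.2% and 58.0% in C57BL/6J. In B6129PF1/J, thinned, the share of Edn3 was 95.8%, of Ednra 65.0%, of Ednrb 83.2% and of Ece1 48.2%. With equal weight for each cluster of B6129PF1/J, Edn3 was at 92.7%, Ednrb in ECs at 34.6% and Ece1 at 47.5%. Without the 5% of cells with most UMIs in that library, Edn3 was at 95.2%. Unthinned shares of cells with a UMI, in the cluster where each gene was highest in B6129PF1/J, were 97.5% for Edn3 and 57.6% for Ednra in that library. They were 100% for Ednrb (also with at least 2 UMIs) and 77.6% for Ece1. In C57BL/6J 88.5% of melanocytes had at least 2 Ednrb UMIs.

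Counts over all genes moved with the limit. There were 1560 cell-type-restricted genes at 2 times and 602 at 5 times, against 944. Higher in Kdr-high ECs were 1045 at 1.5 times and 302 at 3 times, against 564, and in Kdr-low ECs 659 and 204, against 370. After Ihh deletion, higher genes numbered 1093 with no minimum, 248 at 1.5 times and 70 with a pseudocount of 1, against 126, and lower genes 1064, 289 and 36, against 85. With SAG, higher genes numbered 1089, 143 and 18, against 40, and lower genes 1151 and 253, against 122.

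The Ece1 ratio of Kdr-high to Kdr-low ECs, 2.18 in B6129PF1/J, missed a limit of 3 times. In C57BL/6J it passed when thinned (2.48) and, at 1.71, under a limit of 1.5 times. Edn3 after Ihh deletion (log2 ratio -0.95) passed 1.5 times. Direction turned for the strain ratio of Ece1 when thinned (0.962) and for Ednra with SAG under median-of-ratios scaling (log2 ratio -0.049), both near no difference. By Spearman correlation, 0, 2, 1, 1 and 3 of the 5 most similar genes of Edn1, Edn3, Ednra, Ednrb and Ece1 were shared.

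No paired analysis was possible because the bulk tables hold group averages and the single-cell data 1 library per strain, and for the same reason no replicate was left out. Depth limits Ednra in ECs and Edn1 in Kdr-high ECs, where levels rest on few UMIs.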
